A study of Homo sapiens with 9 samples.

Results

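The 10 genes described here encode 6 transcription factors known to drive a mesenchymal programme (SNAI1, SNAI2, TWIST1, TWIST2, ZEB1 and ZEB2), the cadherins CDH1 and CDH2, the filament protein VIM and the matrix protein FN1. They were chosen by symbol and matched to Ensembl identifiers, and all 10 were among the 23727 genes of the deposited count table. A filter on low counts left 15273 genes for testing, 9 of the 10 among them. CDH1 was not tested, with 3 counts over all 9 libraries.

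RNA sequencing was done in LN229 cells, which are an established glioblastoma line of human origin and the only line in the study. Every dish had DMEM with glucose at 17 mM, glutamine at 2 mM and fetal bovine serum at 10%. The 3 groups were untreated cells at 0 h, cells with 500 µM Na-formate for 8 h and cells with 500 µM Na-formate for 24 h, each with 3 libraries numbered 1 to 3. Formate, the anion of formic acid, carries a one-carbon unit into folate metabolism. No untreated cells were taken at 8 or 24 h, so formate and time in culture cannot be told apart. The labels do not say that replicates came from separate cultures, so p-values measure the spread between these libraries, which may be technical.

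In epithelial cells CDH1 (E-cadherin) joins neighbouring cells. The SNAI, TWIST and ZEB factors lower its transcription, directly or through each other, when cells take on a mesenchymal state, in which CDH2 (N-cadherin), VIM (vimentin) and FN1 (fibronectin) are typically high. Gliomas arise from neural tissue without a classical epithelial state, and there the same factors are studied for invasion and stemness. ZEB1 and ZEB2 are textbook targets of the miR-200 family, small RNAs that pair with 3′ untranslated regions through bases 2 to 8 of the microRNA, the seed.

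The miR-200 family is shown because its 2 seeds set ZEB1 and ZEB2 apart from the other genes of the set by sequence. The mature sequences below are from RefSeq (GRCh38.p14), 5′ to 3′, with the seed in capitals. The first 3 share one seed and the last 2 another.
hsa-miR-200b-3p: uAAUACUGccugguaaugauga
hsa-miR-200c-3p: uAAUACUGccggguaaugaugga
hsa-miR-429: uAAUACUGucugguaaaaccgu
hsa-miR-200a-3p: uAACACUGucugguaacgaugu
hsa-miR-141-3p: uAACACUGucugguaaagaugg

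The letters that pair with these seeds, CAGTATT and CAGTGTT, were searched on the sense strand of 1 annotated 3′ untranslated region per gene. ZEB1 held 9 matches (6 CAGTATT and 3 CAGTGTT) in 2549 bases, and ZEB2 also held 9 (5 and 4) in 5370 bases. FN1 held 2 CAGTATT, SNAI2 held 1, and none was found in the windows of SNAI1, TWIST1, TWIST2, CDH1, CDH2 and VIM. Of 18957 genes searched the same way, 28.4% held a match of either kind, 16.1% held CAGTATT and 18.4% held CAGTGTT, while 10 genes (0.0528%) held at least 8. The median region of these genes had 1100 bases. Longer regions have room for more matches, and the numbers were not corrected for length. Below is a stretch of 20 bases (GRCh38) around a match of each kind in both genes, with the match in capitals.
ZEB1 chr10:31527625-31527644, plus strand: tatcttatCAGTATTatcac
ZEB1 chr10:31528038-31528057, plus strand: atcagaatCAGTGTTtgtga
ZEB2 chr2:144389048-144389067, minus strand: ccatacatCAGTATTtttat
ZEB2 chr2:144389232-144389251, minus strand: attttgtaCAGTGTTaaggc
The microRNAs themselves were not measured here. MIR200CHG, the host transcript of miR-200c and miR-141, was looked up after its values were seen and had 1 count over the 9 libraries.

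**Figure D1:**
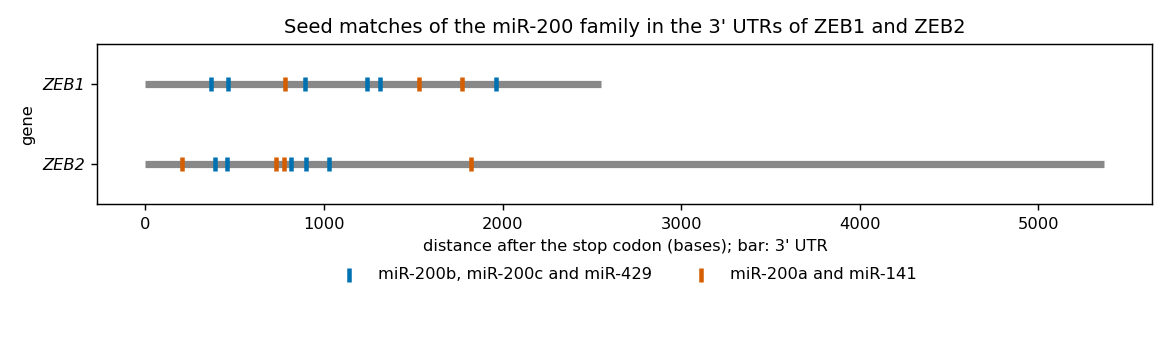
Seed matches (ticks) along the 3′ untranslated regions (grey bars) of ZEB1 and ZEB2, by distance after the stop codon in bases, coloured by the microRNAs that share the seed. Each gene holds 9 matches, and the last of ZEB2 lies 1825 bases after the stop codon in a region of 5370.

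Each library held between 22222298 and 25848242 counts. Levels are given in CPM, the count relative to library size, corrected for RNA composition with TMM factors. Of the glial markers, NES (nestin) lay between 888 and 1011 CPM and SOX2 between 67.2 and 103 CPM, whereas GFAP, the classical astrocyte filament, had 52 counts in all. Of the epithelial markers, EPCAM had 4 counts over all libraries, whereas KRT18 lay between 89.4 and 184 CPM and KRT8 between 13.5 and 23.0 CPM. Of the immune markers, PTPRC (CD45) had 15, and the summed level of the 4 immune markers in the table lay between 0.308 and 0.726 CPM.

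Compared per kilobase of annotated exon, the 10 genes spanned a wide range of levels. VIM, the main filament of mesenchymal and glioma cells, led with a mean over 9 libraries of 839 CPM per kb, followed by FN1 with 298, CDH2 with 60.0 and SNAI1 with 35.9. The ranges of these 4 genes did not overlap with each other or with the genes below them. TWIST1 (14.2 CPM per kb), TWIST2 (10.4), ZEB1 (7.60), SNAI2 (5.64) and ZEB2 (3.75) formed a lower tier where each gene's range overlapped that of its neighbour in the order. CDH1 stood at 0.0023. By total counts over all genes FN1 ranked 3 and VIM ranked 4, and in single libraries FN1 took between 0.348% and 0.900% of all counts and VIM between 0.340% and 0.578%. The lower order depends on the length used: with the longest transcript in place of all exons, SNAI2 (6.76) and ZEB2 (9.81) changed places.

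**Figure D2:**
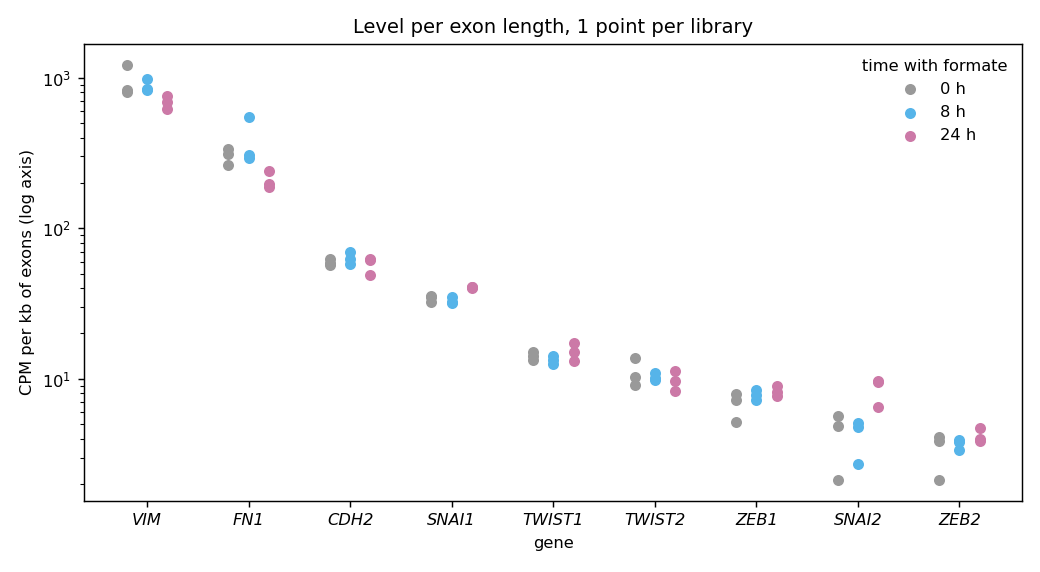
CPM per kilobase of annotated exon on a log axis for the 9 tested genes, with 1 point per library coloured by time with formate. VIM, FN1, CDH2 and SNAI1 lie in separate bands, and the other 5 genes overlap with their neighbours; CDH1, at or near 0, is not drawn.

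CDH1 (ENSG00000039068, chromosome 16, 68737225 to 68835548, plus strand) had 1 count in replicate 1 and 2 counts in replicate 3 of 8 h, and 0 in the other 7 libraries. A count of 3, the limit that 0 counts allow, corresponds to between 0.116 and 0.141 CPM in these libraries, for counting error only. E-cadherin RNA was thus at or under the detection limit in all 3 groups, and no direction can be given. Its counterpart CDH2 (ENSG00000170558, chromosome 18, 27950966 to 28177446, minus strand) was abundant throughout. It stood at 290, 308 and 282 CPM in replicates 1, 2 and 3 of 0 h, at 345, 310 and 286 at 8 h, and at 311, 302 and 242 at 24 h. The 3 groups overlapped, with replicate 3 of 24 h the lowest library and replicate 1 of 8 h the highest.

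**Figure D3:**
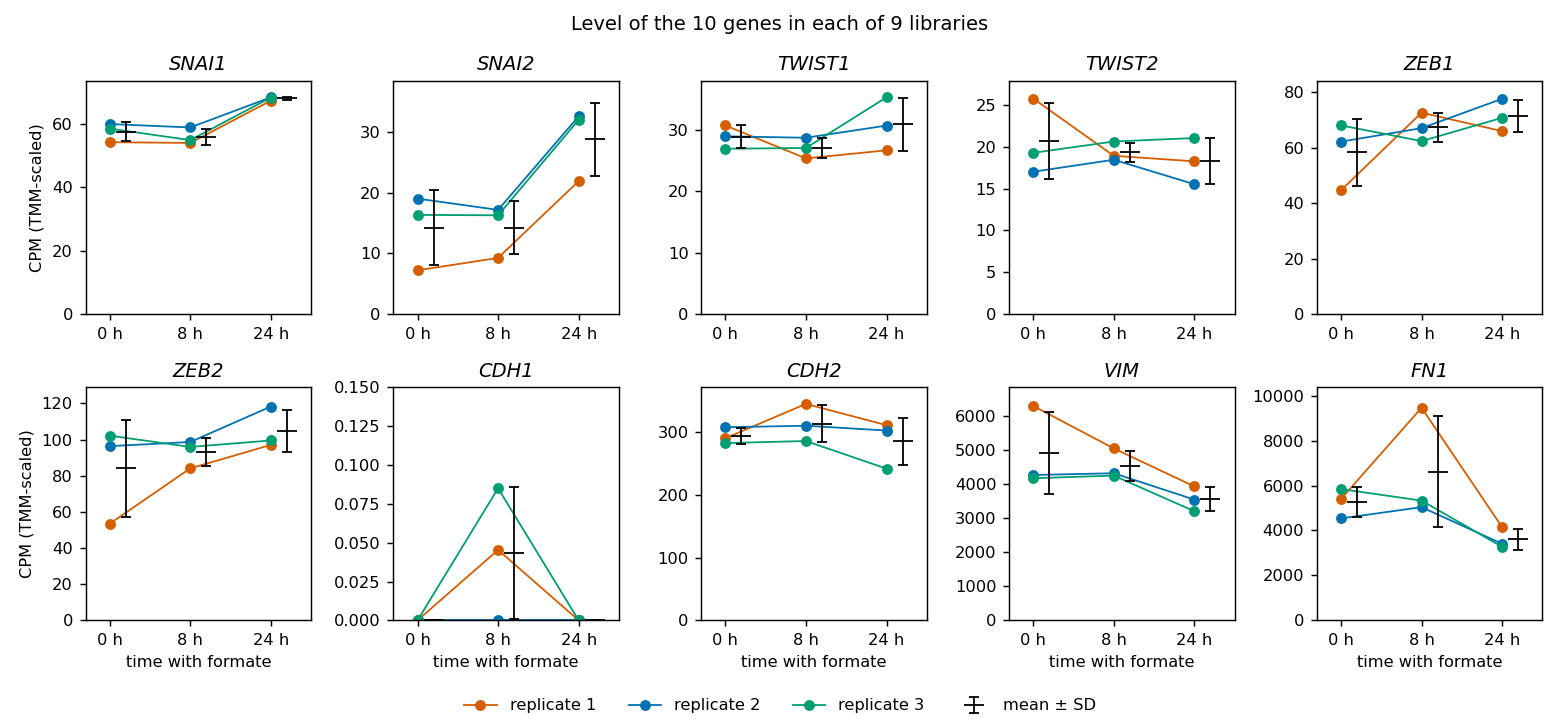
CPM of the 10 genes in each library at 0, 8 and 24 h with formate, with lines joining libraries of the same replicate number and black bars for the mean ± SD over 3 libraries. SNAI1 and SNAI2 are higher and VIM and FN1 lower in all 3 libraries of 24 h than in any of 0 h, and replicate 1 stands apart from replicates 2 and 3 for SNAI2, ZEB2 and VIM at 0 h.

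After 24 h of formate, SNAI2 and SNAI1 stood higher and VIM and FN1 lower than at 0 h in every library, and the other 5 tested genes overlapped. These shifts ran from 1.02 on the log2 scale for SNAI2 to 0.24 for SNAI1, and from -0.54 for FN1 to -0.46 for VIM. None of the 9 genes had an adjusted p under 0.05 in edgeR (quasi-likelihood test, Benjamini-Hochberg over all 15273 genes), where 4.25% of all genes passed. An unadjusted p under 0.05 was found for 4 of the 9, against 26.4% of all genes, and DESeq2 called 1, SNAI2, against 10.9% of all genes. By assumption, the replicate numbers were taken to pair untreated libraries with 24 h libraries. In deviations from group means, however, replicate 2 of 24 h correlated more with untreated replicate 3 (r 0.27) than with its own number (0.164). With the number as a block the same test called 4 of the 9, against 24.1% of all genes called in either direction. SNAI1 and SNAI2 rose (12.6% of all genes did) and VIM and FN1 fell (11.6% did). Replicates did not overlap for these 4 of 9 genes, against 30.3% of all genes tested. In bulk RNA, a change in the share of cells that hold a transcript and a change in its amount per cell cannot be told apart.

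SNAI2 (Slug; ENSG00000019549, chromosome 8, 48917604 to 48921740, minus strand), a zinc finger repressor also known from the neural crest, moved most. It stood at 7.21, 19.1 and 16.4 CPM at 0 h, at 9.26, 17.2 and 16.3 at 8 h, and at 22.0, 32.7 and 32.1 at 24 h. Replicate 1 was the lowest library of each group, and even so its 24 h value exceeded all those of 0 h and 8 h. The mean went from 14.2 ± 6.21 CPM at 0 h (SD, n = 3) to 28.9 ± 6.02 at 24 h. The log2 fold change was 1.02 with a standard error of 0.32 (edgeR adjusted p 0.0855) without the block and 1.08 with a standard error of 0.13 (adjusted p 0.00039) with it. Differences within replicate numbers were 1.59, 0.77 and 0.97 on the log2 scale. With the block, the rise passed in all 9 fits that each left out 1 library and in all 3 that left out a replicate number, with log2 fold changes from 0.87 to 1.27. Without the block the rise passed in 0 of 9 fits that left out 1 library, with log2 fold changes from 0.69 to 1.29. DESeq2 without the block gave 1.01 (adjusted p 0.0198).

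SNAI1 (Snail; ENSG00000124216, chromosome 20, 49982999 to 49988886, plus strand), the closest relative of SNAI2 in the set, shifted far less. It stood at 54.2, 60.0 and 58.5 CPM at 0 h, at 54.0, 58.9 and 54.9 at 8 h, and at 67.3, 68.4 and 68.3 at 24 h. The 24 h libraries lay close together and above all the others. Its log2 fold change was 0.24 with a standard error of 0.09 (edgeR adjusted p 0.117) without the block and 0.24 with a standard error of 0.08 (adjusted p 0.0411) with it. That call was lost in each of the 9 fits with the block that left out 1 library, with adjusted p-values from 0.0513 (without untreated replicate 1) to 0.138 (without untreated replicate 2), and without the libraries numbered 2 or 3 (adjusted p 0.227 and 0.178). Its processed copy SNAI1P1 had 27 counts in all, against 12679 for SNAI1, and how reads that match both copies were counted is not given in the sources used here.

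VIM (ENSG00000026025, chromosome 10, 17228259 to 17237593, plus strand) stood at 6284, 4260 and 4165 CPM at 0 h, at 5040, 4312 and 4242 at 8 h, and at 3925, 3539 and 3199 at 24 h. Untreated replicate 1 was the highest library, and all 3 libraries of 24 h lay below the other 6. The mean went from 4903 ± 1197 to 3554 ± 363 CPM (SD, n = 3). The log2 fold change was -0.46 with a standard error of 0.18 (edgeR adjusted p 0.133) without the block, and -0.45 with a standard error of 0.10 (adjusted p 0.00858) with it. The fall with the block passed in all 9 fits that left out 1 library, with adjusted p-values up to 0.0492, and did not pass without the libraries numbered 2 (adjusted p 0.0581). Without the block the fall passed in 0 of 9 fits that left out 1 library, with log2 fold changes from -0.57 to -0.26. VIM-AS1, an antisense gene, overlaps part of the 24.4% of VIM exon bases that carry annotation on the opposite strand. The strand setting of the counts is not given in the sources used here. VIM-AS1 stood at 5.76 ± 0.530 CPM at 0 h and 5.36 ± 1.74 at 24 h (SD, n = 3), and the effect of the overlap on the counts of VIM was not tested.

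FN1 (ENSG00000115414, chromosome 2, 215360440 to 215436172, minus strand), whose product links the matrix to integrins, stood at 5400, 4538 and 5843 CPM at 0 h, at 9461, 5038 and 5330 at 8 h, and at 4146, 3408 and 3272 at 24 h. All 3 libraries of 24 h lay below the other 6, and replicate 1 of 8 h stood far above every other library. The log2 fold change at 24 h against 0 h was -0.54 with a standard error of 0.23 (edgeR adjusted p 0.163) without the block and -0.55 with a standard error of 0.15 (adjusted p 0.0223) with it. With the block the call was lost without untreated replicate 2 (-0.56, adjusted p 0.0620), untreated replicate 3 (-0.37, adjusted p 0.0750), replicate 1 of 24 h (-0.50, adjusted p 0.0934) or replicate 3 of 24 h (-0.51, adjusted p 0.0858). It was also lost without the libraries numbered 2 (adjusted p 0.0798) or 3 (adjusted p 0.0948), and FN1 stood lower at 24 h in each of those fits.

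FN1 has long served as a model of transcriptional control through a cyclic AMP response element beside a CCAAT box near its start, and its promoter is shown because it was the member with the largest fall. The 146 bases upstream of the annotated gene are given from RefSeq (GRCh38.p14, chr2:215436173-215436318, minus strand), with capitals for the letters TGACGTCA, CCAAT and GGGCGG.
FN1 promoter: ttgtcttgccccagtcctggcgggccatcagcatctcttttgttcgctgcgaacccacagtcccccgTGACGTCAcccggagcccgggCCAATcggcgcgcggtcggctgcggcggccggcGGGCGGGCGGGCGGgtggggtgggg
The search of both strands over 250 bases upstream of 35116 promoters found TGACGTCA in 1.65%, CCAAT in 32.0% and GGGCGG, whose matches here overlap each other, in 42.6%. CAGGTG, an E-box that SNAI and ZEB factors are known to bind, was in 17.5% of the promoters and not in the windows of FN1 or VIM. A match is a description of letters and not evidence of binding.

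ZEB1 (ENSG00000148516, chromosome 10, 31318495 to 31529814, plus strand), a zinc finger and homeobox repressor, stood at 44.7, 62.2 and 68.1 CPM at 0 h, at 72.7, 67.1 and 62.4 at 8 h, and at 66.0, 77.7 and 70.8 at 24 h. ZEB2 (ENSG00000169554, chromosome 2, 144364364 to 144524583, minus strand), its paralog, stood at 53.5, 96.4 and 102 CPM at 0 h, at 84.1, 98.7 and 95.9 at 8 h, and at 97.1, 118 and 99.5 at 24 h. Untreated replicate 1 was the lowest library for both genes, and for both the 24 h libraries overlapped those of 0 h. The log2 fold change at 24 h was 0.29 for ZEB1 (standard error 0.14, edgeR adjusted p 0.214) and 0.32 for ZEB2 (standard error 0.20, adjusted p 0.315), and neither passed with the block (adjusted p 0.110 and 0.0858). Without untreated replicate 3, the blocked fit called both, with 0.46 for ZEB1 (adjusted p 0.0194) and 0.53 for ZEB2 (adjusted p 0.0125), and without the libraries numbered 3 it called ZEB2 (0.56, adjusted p 0.0210).

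TWIST1 (ENSG00000122691, chromosome 7, 19020991 to 19117672, minus strand) and TWIST2 (ENSG00000233608, chromosome 2, 238848032 to 238910543, plus strand) are basic helix-loop-helix factors. TWIST1 stood at 30.7, 28.9 and 26.9 CPM at 0 h, at 25.3, 28.7 and 27.0 at 8 h, and at 26.6, 30.7 and 35.3 at 24 h. TWIST2 stood at 25.8, 17.0 and 19.3 CPM at 0 h, at 18.9, 18.5 and 20.6 at 8 h, and at 18.3, 15.5 and 21.1 at 24 h. Both genes overlapped between all groups, and replicate 1 of 24 h was below its 0 h partner in both. Log2 fold changes at 24 h were 0.10 for TWIST1 and -0.18 for TWIST2 (edgeR adjusted p 0.609 and 0.494), and that of CDH2 was -0.04 with a standard error of 0.12 (adjusted p 0.845). CDH2 changed sign without scaling factors (0.03).

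**Figure D4:**
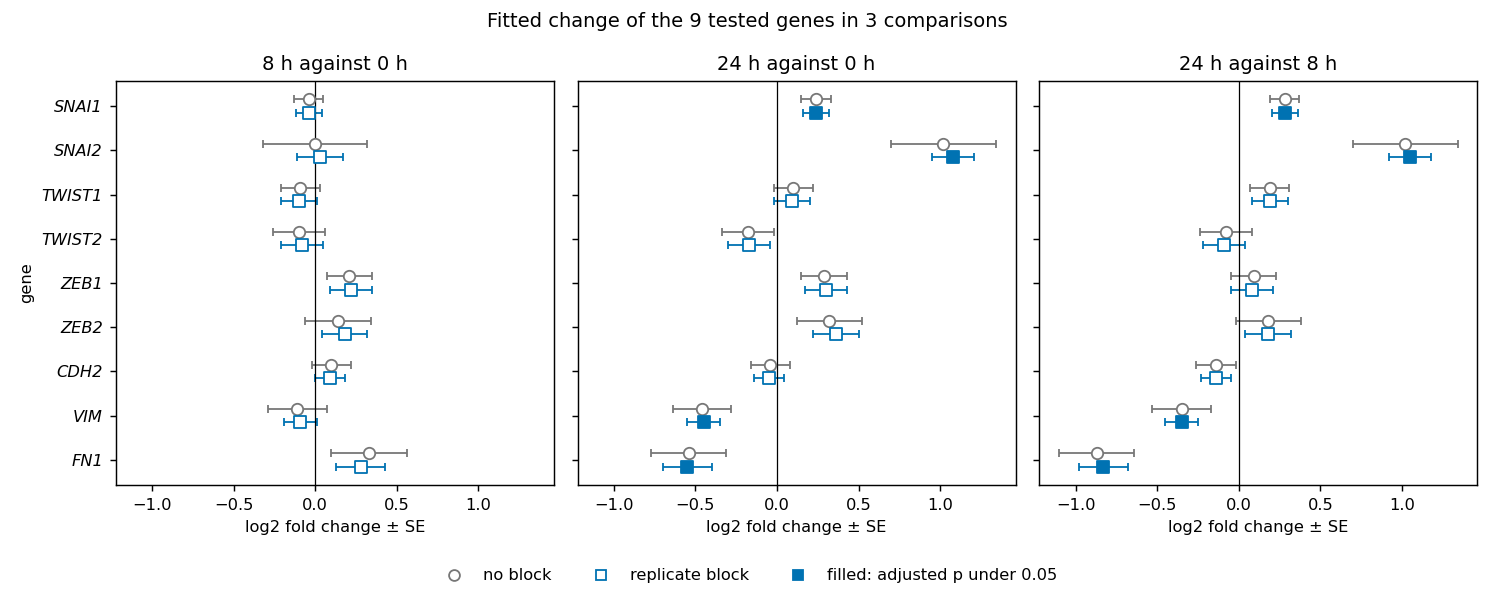
Fitted log2 fold change ± standard error of the 9 tested genes in 3 comparisons, without the replicate block (circles) and with it (squares), filled where the adjusted p was under 0.05. At 24 h against 0 h and against 8 h, SNAI1 and SNAI2 lie right of 0 and VIM and FN1 left of 0 with filled squares, and no symbol is filled at 8 h.

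At 8 h none of these 9 genes differed detectably from 0 h. None passed by edgeR's quasi-likelihood test (0.0% of all genes did), with or without the block, none had an unadjusted p under 0.05 without the block (0.517% of all genes did), and DESeq2 called none. No gene of the set had replicates that did not overlap, against 3.31% of all genes. Values of the genes that moved at 24 h were 0.00 for SNAI2, -0.04 for SNAI1 and -0.11 for VIM on the log2 scale. FN1 had the largest value, 0.33 with a standard error of 0.23 (edgeR adjusted p 0.9999), and without replicate 1 of 8 h it was -0.01.

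Between 8 h and 24 h the same 4 genes separated without overlap, against 34.3% of all genes. FN1 stood lower at 24 h by a log2 fold change of -0.87 (standard error 0.23, edgeR adjusted p 0.0530) and VIM by -0.35 (adjusted p 0.260). SNAI2 stood higher by 1.02 (standard error 0.32, adjusted p 0.0886) and SNAI1 by 0.28 (adjusted p 0.0814). None of the 9 passed by edgeR without the block, where 4.56% of all genes did, although 3 had an unadjusted p under 0.05, against 22.8% of all genes. With the replicate number as a block 4 of the 9 passed, against 20.5% of all genes: SNAI2 (1.05, adjusted p 0.000439) and SNAI1 (0.28, adjusted p 0.0238) were higher (11.8% of all genes were) and FN1 (-0.83, adjusted p 0.00324) and VIM (-0.35, adjusted p 0.0282) lower (8.71% were). With the block and 1 library left out, SNAI2 and FN1 passed in all 9 fits. VIM did not pass without replicate 2 of 8 h (adjusted p 0.129), replicate 3 of 8 h (0.144), replicate 1 of 24 h (0.113) or replicate 3 of 24 h (0.0642). SNAI1 passed in 2 of the 9, those without untreated replicate 1 or 3, and had adjusted p-values from 0.0578 to 0.175 in the other 7. DESeq2 called FN1 and SNAI2 (adjusted p 0.00229 and 0.0208), against 10.2% of all genes. Untreated replicate 1 is in neither group compared here, but it enters the filter, the scaling and the shared estimate of the spread. Without that library edgeR called FN1 (adjusted p 0.0232), SNAI1 (0.0243) and SNAI2 (0.0122), against 16.3% of the 15598 genes then tested. The comparisons of 24 h with 0 h and with 8 h share the libraries of 24 h.

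Genes whose profile over the 9 libraries was most like each member were found by the root mean square difference of log2 CPM centred on each gene's mean, among 10839 genes with a mean of at least 5 CPM. For SNAI2, whose own SD over the libraries was 0.678, they were KLHL24 (0.0969), FGFR3 (0.109) and SOBP (0.115). For FN1 (SD 0.433) they were SLIT2 (0.122), KLF7 (0.132) and LIMCH1 (0.149). VIM (SD 0.265) was nearest to WDR77, GRPEL1 and EMC8, with 0.0294 for WDR77, and ZEB2 (SD 0.302) to HIPK3, ACAP2 and PRKAA1, with 0.0369 for HIPK3. ZEB1 was nearest to DCAF17, and the 3 nearest to SNAI1 were PML, ZNF740 and PIK3C3. CDH2 was nearest to RALGPS2, KLF10 and EPC1, TWIST1 to CRIPT, DCAKD and TMEM59, and TWIST2 to SHLD1, DNAJC17 and DPCD. No other member was among the 3 nearest genes of any member.

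Genes that act with these factors were given as lists, here for 24 h against 0 h, where the median of all tested genes was 0.01 on the log2 scale, 2.47% of all genes rose and 1.77% fell in edgeR without the block, and 12.6% rose and 11.6% fell with it. Of 11 tested transcription factors that can also drive a mesenchymal state, 2 fell, FOXC2 (-1.47, edgeR adjusted p 0.0199) and HMGA2 (-1.09, adjusted p 0.0199), and none rose. With the block 2 rose, SOX4 (0.81, adjusted p 0.000622) among them, and 3 fell. The list median was 0.02. Of 7 tested epithelial factors and ID proteins, which oppose the mesenchymal factors, ID4 rose (0.80, adjusted p 0.0289) and KLF4 fell (-0.79, adjusted p 0.0396), with a list median of -0.13. The other 8 entries, GRHL2 and OVOL1 among them, failed the filter on low counts.

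Corepressors and turnover factors of the SNAI and ZEB proteins held 23 tested genes, of which 2 rose and 2 fell, with a median of -0.04. AJUBA, a LIM-domain corepressor of SNAI1, fell by 1.33 on the log2 scale (edgeR adjusted p 0.0215), from 53.3 ± 15.5 to 21.2 ± 3.79 CPM (SD, n = 3). FBXL5, an F-box protein that can lead SNAI1 to degradation, fell by 0.55 (adjusted p 0.0229). PRKD1, a kinase that phosphorylates SNAI1, rose by 0.43 (adjusted p 0.0305). With the block 3 rose and 2 fell.

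Of 12 tested cadherins and catenins, CDH11 (OB-cadherin, a mesenchymal cadherin) rose by 0.54 (edgeR adjusted p 0.0253), from 23.5 ± 2.56 to 34.2 ± 0.308 CPM (SD, n = 3), and none fell. With the block 4 rose, CDH19 (0.58, adjusted p 0.00192) and CDH15 (1.38, adjusted p 0.00692) among them, and 1 fell, with a list median of 0.19. CDH15 was low, at 117 counts in all. Of 12 tested genes of intermediate filaments other than VIM, with the filament linker PLEC among them, none passed without the block. With it 1 rose and 4 fell, with a median of -0.22. KRT80 (-1.26, adjusted p 0.000984), LMNA (-0.50, adjusted p 0.00266) and KRT18 (-0.55, adjusted p 0.00333) led by p. Keratin pseudogenes can share the reads of KRT18, and 16.3% of its exon bases carry annotation on the opposite strand. Its counts are thus uncertain, and the effect of either was not tested.

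Of 14 tested genes of the fibronectin system, the receptor subunit ITGA5, which with ITGB1 forms the main fibronectin receptor, fell by 0.49 (edgeR adjusted p 0.0403), from 267 ± 20.4 to 191 ± 13.8 CPM (SD, n = 3). ITGA9 rose by 1.51 (adjusted p 0.0331), from 51.1 ± 23.4 to 146 ± 25.3 CPM. With the block 2 rose, ITGA9 and ITGB3 (0.56, adjusted p 0.000857), and 2 fell, with a median of 0.02. Of 19 tested mesenchymal effector genes, 4 fell and none rose without the block, and 10 fell and 2 rose with it, with a median of -0.38. Among the falls were NT5E (CD73; -1.05, edgeR adjusted p 0.0170), TAGLN (-1.37, adjusted p 0.0316) and THBS1 (thrombospondin; -1.63, adjusted p 0.0359). A related list of mesenchymal and matrix genes was already known to fall in these libraries when this one was chosen, so its direction is not independent evidence.

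Of 9 tested epithelial junction genes none passed without the block, and with it MUC1 (0.92, edgeR adjusted p 0.0108) and PATJ (0.40, adjusted p 0.0189) rose and PKP3 fell (-0.36, adjusted p 0.0173), with a median of 0.21. MUC1 was low, at 375 counts in all, and EPCAM, of the same list, was near 0 in every library. Of 11 tested TGF-beta ligands, receptors and SMADs, genes of a pathway that can induce several of the factors, none passed without the block. With it the receptors TGFBR3 (0.84, edgeR adjusted p 0.00821) and TGFBR2 (0.30, adjusted p 0.0274) rose, with a list median of 0.09. At 8 h no gene of these lists passed by edgeR, with or without the block. The calls of all genes without the block depended on the libraries kept, and leaving a library out also lowers power. No gene passed in edgeR when replicate 2 of 24 h was left out (2550 before adjustment, unadjusted p under 0.05). None passed when replicate 3 of 24 h was left out (2563 before adjustment).

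**Figure D5:**
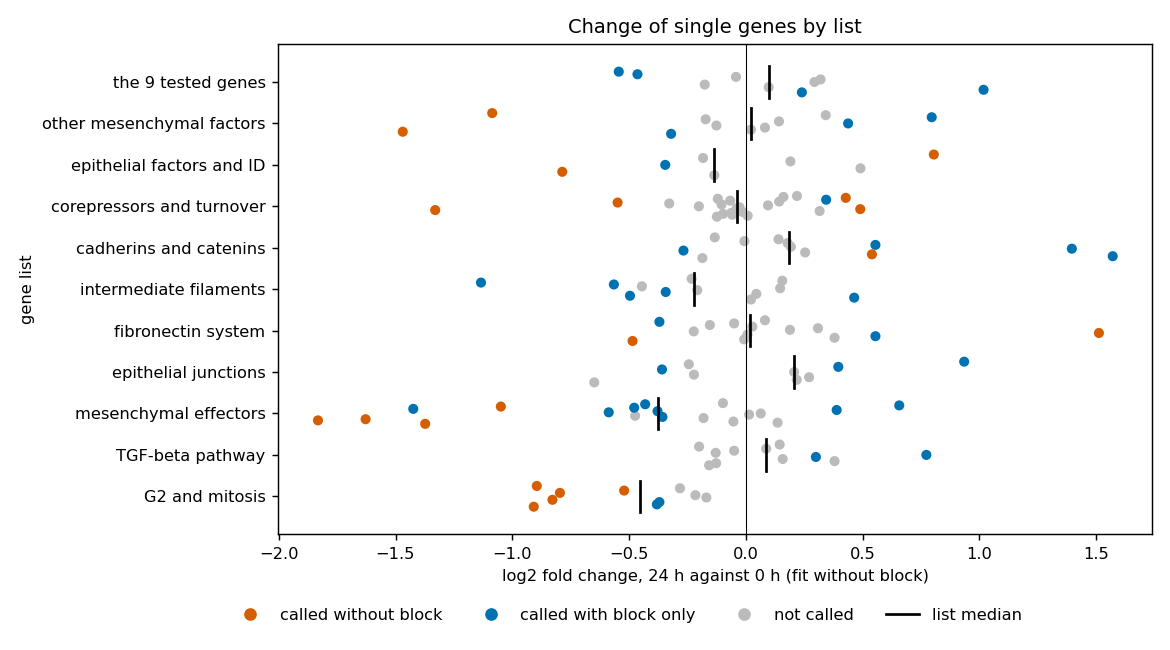
Log2 fold change at 24 h against 0 h, from the fit without the block, for single genes of 10 lists and the 9 tested genes of the set, with a black bar at each median and colours for genes called without the block, called with the block only, or not called. Mesenchymal effectors (median -0.38) and genes of G2 and mitosis (median -0.45) lie lowest. The medians of the other lists run from -0.22 (intermediate filaments) to 0.21 (epithelial junctions), against 0.01 for all genes.

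Other groups of genes moved at the same time. Of 10 genes of G2 and mitosis, 5 fell without the block and 7 with it (median -0.45), with CCNB1 at -0.91 (edgeR adjusted p 0.0215), CDC20 at -0.90 (adjusted p 0.0267) and PLK1 at -0.83 (adjusted p 0.0267). Their summed level lay between 4782 and 4938 CPM at 0 h and between 2870 and 4235 at 24 h. The summed level of the 7 fibroblast markers lay between 60.1 and 75.1 CPM at 0 h and between 82.5 and 108 at 24 h, and that of the 4 endothelial markers between 0.501 and 1.04 CPM at 0 h and between 1.29 and 1.95 at 24 h, with PECAM1 at 10 counts in all. The 9 epithelial markers summed to between 145 and 211 CPM at 0 h and between 113 and 132 at 24 h, most of it KRT18. The 11 glial markers summed to between 2177 and 2401 CPM at 0 h and between 2325 and 2409 at 24 h, but 3 of the 10 tested rose without the block and none fell (median 0.43), and with it 5 rose and 1 fell. Those 3, named after their values were seen, were FABP7 (1.25, edgeR adjusted p 0.0167), SLC1A3 (1.58, adjusted p 0.0277) and S100B (1.38, adjusted p 0.0460). The 1 tested endothelial marker, VWF, rose too (1.60, edgeR adjusted p 0.0304). Counts were low for VWF, at 151 in all, and for SLC1A3, at 474 in all. Of 6 tested fibroblast markers none passed without the block, and 3 rose with it. Whether any of these groups has a part in the shifts of SNAI1, SNAI2, VIM and FN1 was not tested.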

How the data were processed

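RNA for 9 libraries was taken from dishes of LN229 cells, accepted with an integrity number above 9, and made into stranded mRNA libraries, per the labels' protocols. The authors deposited raw counts per Ensembl gene, 1 column per library; bcl2fastq 2.20.0.422, STAR 2.7.4a and GRCh38 are named per the submitters' processing notes. The counting program, annotation release and strand setting are not given in the sources used here. A source label spells the cell line differently, and the name in the growth protocol was used.

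Symbols came from GENCODE 29 and a table of Ensembl identifiers (19733 of 23727 genes had one). Counts were filtered with filterByExpr, scaled by TMM and tested with edgeR 4.0.16 (R 4.3.3; glmQLFit, glmQLFTest, two-sided) over all 9 libraries, with Benjamini-Hochberg adjustment over 15273 genes and a threshold of 0.05. The fit was tested on simulated data. Alternatives were the replicate block, other scaling, DESeq2 1.42.0, no filter, fewer groups and libraries left out. The alternative with both the block and 1 library left out was chosen after seeing the data.

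Deviations of same-numbered libraries from their group means correlated across genes with r of 0.476, 0.432 and 0.414 between 0 h and 8 h, 0.367, 0.164 and 0.251 between 0 h and 24 h, and 0.423, 0.0367 and 0.404 between 8 h and 24 h. For other numbers r ran from -0.364 to 0.0108, -0.4 to 0.27 and -0.44 to 0.134. Replicate 2 of 24 h correlated more with untreated replicate 3 (0.27) than with its own number at 0 h (0.164). It also correlated more with replicate 3 of 8 h (0.134) than with its own number at 8 h (0.0367). The numbers in the titles were taken to pair the libraries as an assumption. Deviations within a group cancel out, which pushes values for other numbers down, so these correlations cannot establish the pairing. All calls with the block, those of 24 h against 8 h included, rest on it. The pairing is least firm for replicate 2 of 24 h.

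The members and lists were chosen with earlier results of these data known. Named are all 10 members, up to 3 genes with an adjusted p under 0.05 and the smallest p from each list and fit, and the 3 genes most like each member with a mean of at least 5 CPM. THBS1 is named from the blocked fit. A few genes that this rule names are not reported here and were not replaced. Counts with a depth of 22222298 to 25848242 per library set the precision, for counting error only. Levels per kb used the union of GENCODE exons. The figures were drawn with matplotlib 3.10.9.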

Additional observations from a re-analysis of the deposited data

Results flagged for a closer look

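For 15 genes of the companion lists, the change from 0 h at 24 h differed from that at 8 h, tested as 24 h against 8 h by edgeR without the block (3 libraries a group). Lower at 24 h than at 8 h on the log2 scale were THBS1 (-1.92), FOXC2 (-1.53), AJUBA (-1.35), TAGLN (-1.32), HMGA2 (-1.17), NT5E (-1.08), PLK1 (-0.83), CDC20 (-0.81), CCNB1 (-0.79), FBXL5 (-0.59) and ITGA5 (-0.50). Higher at 24 h were ITGA9 (1.56), ID4 (0.97), PRKD1 (0.45) and CDH11 (0.42). Adjusted p-values ran from 0.0171 (NT5E) to 0.0429 (CDH11). None of the 9 tested genes of the mesenchymal set passed it, and the nearest was FN1 (edgeR adjusted p 0.0530).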

How the results depend on the processing

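Over 243 alternative fits of the 9 genes in each comparison, the direction and side of the threshold held in 209 at 8 h against 0 h, 195 at 24 h against 0 h and 194 at 24 h against 8 h. The sign turned in 34, 10 and 3, and the call was gained in 0, 38 and 46.

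Genes of the set called at 24 h against 0 h numbered 0, with the replicate block 4, with the block and without number 1, 2 or 3 in turn 4, 1 and 3, with DESeq2 1, and with the block and 1 library left out 2 to 4. At 24 h against 8 h, 0 became 4 with the block, then 4, 2 and 2 without a number, 2 with DESeq2, 1 without the filter, 3 with only the 2 groups, 0 to 3 with 1 library left out and 2 to 4 with the block and 1 left out. All genes called at 24 h against 0 h numbered 649, with the block 3687, without a number 3991, 1387 and 2590, with DESeq2 1594, with 2 groups 124, with 1 library left out 0 to 899, and with block and 1 left out 2213 to 3816. At 24 h against 8 h they numbered 696, with the block 3130, without a number 4477, 1201 and 1353, with DESeq2 1447, with 2 groups 1787, with 1 left out 0 to 2545 and with block and 1 left out 1179 to 5432. The cause was not tested. No gene passed at 8 h in any of these fits, by edgeR or DESeq2 (79 had an unadjusted p under 0.05 by edgeR without the block). Exon length against longest transcript moved 2 ranks.

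No sign turned for a change called with or without the block. SNAI2 at 8 h (0.00) was 0.03 with the block, 0.00 with RLE factors, no scaling, no filter or 2 groups, 0.01 with DESeq2, -0.32 to 0.27 with 1 library left out, -0.13 to 0.18 with block and 1 left out, and 0.15 and 0.07 with the block without number 2 or 3. With the block and 1 library left out at 8 h, TWIST1 reached 0.02 (from -0.18), TWIST2 0.09 (from -0.19), ZEB2 -0.04 (to 0.37) and VIM 0.02 (from -0.17). Without the block, TWIST2 ran from -0.22 to 0.09, ZEB2 from -0.10 to 0.32, VIM from -0.21 to 0.10 and FN1 from -0.01 to 0.49. With the block without number 1, TWIST2 was 0.11, ZEB1 -0.01, ZEB2 -0.03 and VIM 0.02. At 24 h against 0 h, TWIST1 was -0.06 and CDH2 0.04 with the block without number 3, TWIST2 0.01 without number 1, and CDH2 0.03 without scaling. With 1 library left out TWIST1 ran from -0.01 to 0.19 and CDH2 from -0.11 to 0.06, and with block and 1 left out from -0.04 to 0.19 and from -0.14 to 0.02. At 24 h against 8 h, TWIST2 ran from -0.21 to 0.01 with 1 library left out, and with the block as well from -0.21 to 0.00, and ZEB1 from -0.04 to 0.25.

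Depth limits CDH1, with 3 counts in all, and the other 9 genes had at least 153 counts in every library.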
